A study of Mus musculus with 2 samples.

Results

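Ionocyte-type microvillar cells are a rare epithelial cell type of the mouse olfactory epithelium, where odours are sensed. Ionocytes are cells specialised for moving ions and acid across an epithelium. They are known from airway, kidney and inner ear for the forkhead factor Foxi1, for proton pumps (V-ATPases) and for chloride channels such as Cftr, the cystic fibrosis chloride channel. In the olfactory epithelium they reach the surface as slender cells with microvilli between the sustentacular (supporting) cells, beside the tuft-type microvillar cells that are marked by the cation channel Trpm5.

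The cells were chosen by measured values. A barcode, which stands for a droplet and normally for 1 cell, was kept if it held 3000 UMIs or more (unique molecular identifiers, each counting 1 captured transcript) from 500 genes or more, and if mitochondrial genes took no more than 10% of them. It was called ionocyte-type if the cochlin gene Coch took at least 0.2% of its UMIs, Ascl3 (a bHLH transcription factor) and Cftr together had at least 2 UMIs, and Omp, the marker of mature olfactory neurons, took under 0.15%. This gave 57 cells of the 3226 barcodes that passed the first limits: 48 of 1944 in the transgenic library and 9 of 1282 in the wild-type library. Coch, Ascl3, Cftr, Omp and mitochondrial values are therefore descriptions, as they made the choice. The remaining genes were not used by it.

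The study profiled dissociated olfactory epithelium by droplet single-cell RNA-seq, reading the 3′ ends of transcripts. The transgenic mouse was a female of 9 weeks with the genotype Tg(Or8a1-OR1A1,-MAPT/mCherry)D736Feins/+. Its construct name lists mCherry, a fluorescent protein, and MAPT beside the odorant receptor genes Or8a1 and OR1A1. The wild-type mouse was a female of 8 weeks, labelled as a cross of 10G4-V2.2-#7/Jax with Bl6/129SF1/J. Genotype, strain background and age thus differ together and cannot be told apart. Each group was 1 animal and 1 library, so differences between the libraries have no replicate check and were not tested. Intervals are exact, at 95%, and stand for counting error alone. The libraries held 70572741 and 55701219 UMIs, transgenic first, and no barcode sequence was shared between the transgenic and the wild-type ionocyte-type cells.

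Ionocyte-type cells were 2.47% of the passing barcodes in the transgenic library (1.83 to 3.26%) and 0.702% in the wild-type library (0.321 to 1.33%). Both shares were set largely by the mitochondrial limit. The median mitochondrial share of the chosen cells was 8.83% for transgenic and 8.89% for wild-type cells, close under the 10% allowed. Tuft-type cells had medians of 6.53% and 6.95% in the same libraries, sustentacular cells 8.06% and 8.29%, and all other passing barcodes 5.42% and 5.22%. With the limit at 20%, 223 transgenic cells (8.34%, 7.32 to 9.45%) and 75 wild-type cells (4.30%, 3.40 to 5.36%) met the other conditions. Of these, 78.5% for transgenic and 88.0% for wild-type cells lay above 10%. The same share was 10.6% and 19.0% for tuft-type cells, 51.2% and 74.1% for sustentacular cells, and 27.3% and 26.4% for all barcodes. The limit thus removed a larger share of ionocyte-type and of sustentacular cells than of all barcodes. The transgenic share stood above the wild-type share at the 10% and 20% limits and with no limit (8.25% and 5.34%).

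**Figure D1:**
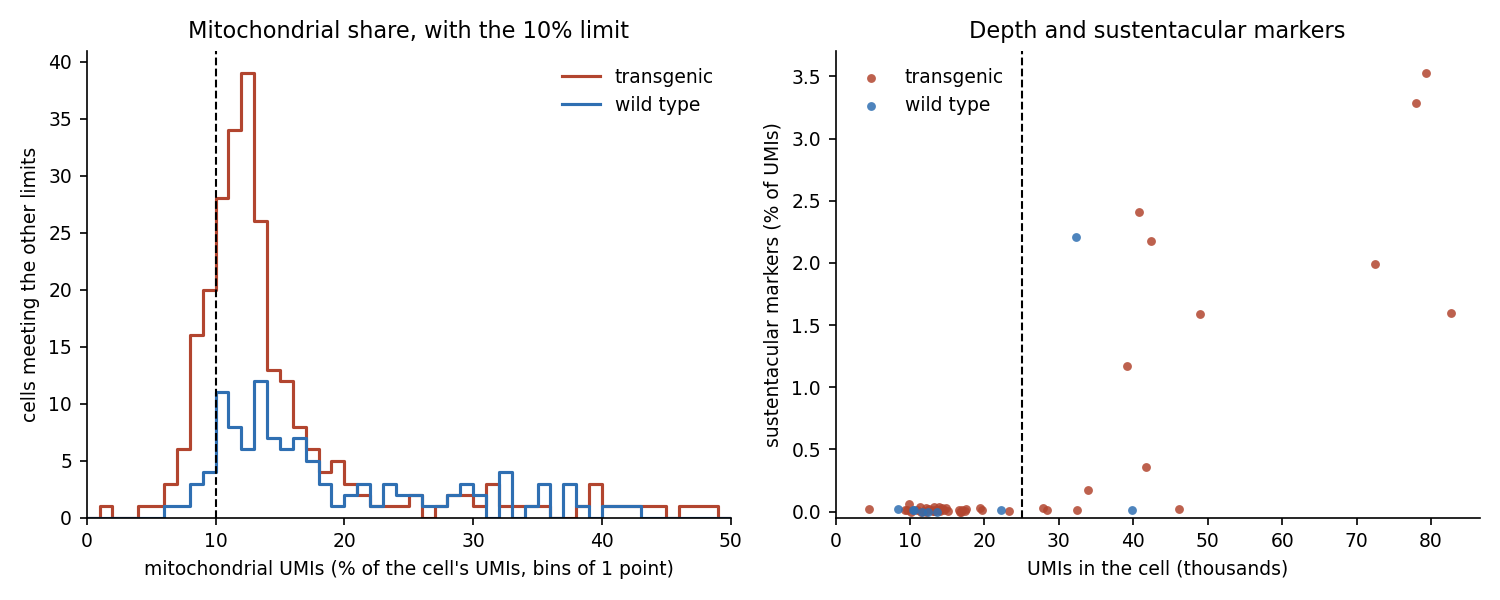
Left, numbers of cells that met every condition but the mitochondrial limit, by mitochondrial share in bins of 1 percentage point, for the transgenic and the wild-type library, with the 10% limit dashed. Right, each of the 57 ionocyte-type cells by its UMIs and its summed sustentacular markers. Of the cells past 25000 UMIs (dashed), 8 transgenic and 1 wild-type cell held over 1% of these markers, whereas no cell below it held more than 0.0604%.

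At the edges of the rule, the lowest Coch share of a chosen cell was 0.206% for transgenic and 0.430% for wild-type cells. The highest share just outside, among cells with enough Ascl3 and Cftr, was 0.199% and 0.0766%. In the transgenic library 7 cells lay between 0.1% and 0.2%. Ascl3 and Cftr together counted 10 to 84 UMIs in transgenic and 18 to 45 in wild-type cells, far above the 2 required. The Omp condition alone kept out 5 transgenic cells, with 0.192 to 0.363% Omp, and 1 wild-type cell with 0.302%. Just past the mitochondrial limit, 28 transgenic cells lay between 10% and 11%.

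Depth split the chosen cells into 2 kinds. Their UMIs ran between 4546 and 82644 in the transgenic (median 15036) and between 8390 and 39793 in the wild-type library (median 12404). Of them, 14 transgenic and 2 wild-type cells held 25000 UMIs or more, a limit chosen after the values had been seen. These were 29.2% of the transgenic and 22.2% of the wild-type ionocyte-type cells, against 9.65% and 10.7% of the other barcodes. In the transgenic library 12 of the 14 carried genes of another cell type: 8 had at least 50 UMIs of the sustentacular genes Cyp2g1 and Sec14l3, 2 had at least 20 of the basal keratin Krt5, 1 had 51 of the neuronal growth gene Gap43 and 1 had 17 of the proliferation gene Mki67. A further deep cell held 511 UMIs of the collagen gene Col1a1. The last one, of 27938 UMIs, held 37 UMIs of the neuronal genes Gap43, Stmn2 and Gng8 together. In the wild-type library 1 of the 2 held 375 UMIs of Cyp2g1. The other held 100 UMIs of Sox11 and 73 of a list of basal and progenitor markers. None of the 34 transgenic and 7 wild-type cells under 25000 UMIs reached these limits. Those cells were not free of other RNA: 1 transgenic cell held 248 UMIs of Lyz2, a macrophage lysozyme gene, and another held 1218 of Apoe with 34 of the complement gene C1qa. By UMIs of the ionocyte-type cells, 59.6% of the transgenic and 44.7% of the wild-type UMIs came from the deep cells. Levels are given for all ionocyte-type cells unless those under 25000 UMIs are named, which was done for part of the genes. Over all cells the levels of ionocyte genes are lowered by the deep cells. The 10 listed ionocyte markers summed to 14190 and 20438 CPM over all transgenic and wild-type cells, and to 24360 and 30092 CPM under 25000 UMIs.

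The label was set against markers. Leaving out Coch, Ascl3 and Cftr, which had chosen the cells, 6 of 7 listed ionocyte markers were at least 4-fold above all other cells in both libraries. The exception was Atp6v1c2. Of all genes with at least 50 UMIs in the ionocyte-type cells, 4.49% passed the same limit. The list was drawn up with earlier results of these data known, so the count is a description. Of 19 tuft-cell markers, 12 had no UMI in any cell under 25000 UMIs of either library, among them Trpm5 and its regulator Pou2f3. Trpm5 stood at 1039 and 953 CPM (counts per 1000000 UMIs) in the transgenic and wild-type tuft-type cells. The ionocyte-type cells under 25000 UMIs had no UMI of the basal keratins Krt5 and Krt14, nor of the neurogenic factors Neurod1 and Neurog1. The list of basal and progenitor markers that holds those factors still summed to 518 and 650 CPM, against 369 and 190 CPM in all other cells. Its transcription factor gene Sox2 had 242 and 370 CPM against 93.4 and 62.4 CPM, and the receptor gene Kit had 115 and 157 CPM against 18.7 and 17.2 CPM. Sustentacular markers summed over the same ionocyte-type cells were 153 and 78.5 CPM in the transgenic and wild-type library, against 19411 and 13515 CPM in sustentacular cells of the same depth range. Of the other lists, the immature neuron markers summed to 2752 and 3351 CPM against 3096 and 1782 CPM in all other cells, nearly all from Gnas and Stmn1, which many cells express, while Gap43 had 8.49 and 11.2 CPM. Immune markers summed to 978 and 134 CPM against 2322 and 24298 CPM, the first mainly from Lyz2 (810 CPM). The part of other RNA in the results was not tested.

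Coch, which encodes a secreted protein best known from the inner ear, was the most abundant of the 4 markers. It reached 7849 CPM in transgenic ionocyte-type cells (7689 to 8011) and 12410 in wild-type ones (11872 to 12966), summed over cells. By cell it ran between 2063 and 28464 CPM with a median of 11830 in the transgenic library, and between 4297 and 23218 with a median of 19682 in the wild-type library. Ascl3 had 1170 CPM (1109 to 1234) and 756 CPM (628 to 903) in the transgenic and wild-type cells. Cftr had 604 CPM (560 to 650) and 750 CPM (622 to 896). Moxd1, a copper-dependent monooxygenase-like gene that the rule did not use, had 820 CPM (769 to 874) in the transgenic and 948 CPM (804 to 1111) in the wild-type cells. This was 85.6-fold and 313-fold its level in all other cells. Single cells of the 2 libraries overlapped in range for each of the 4 genes.

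**Figure D2:**
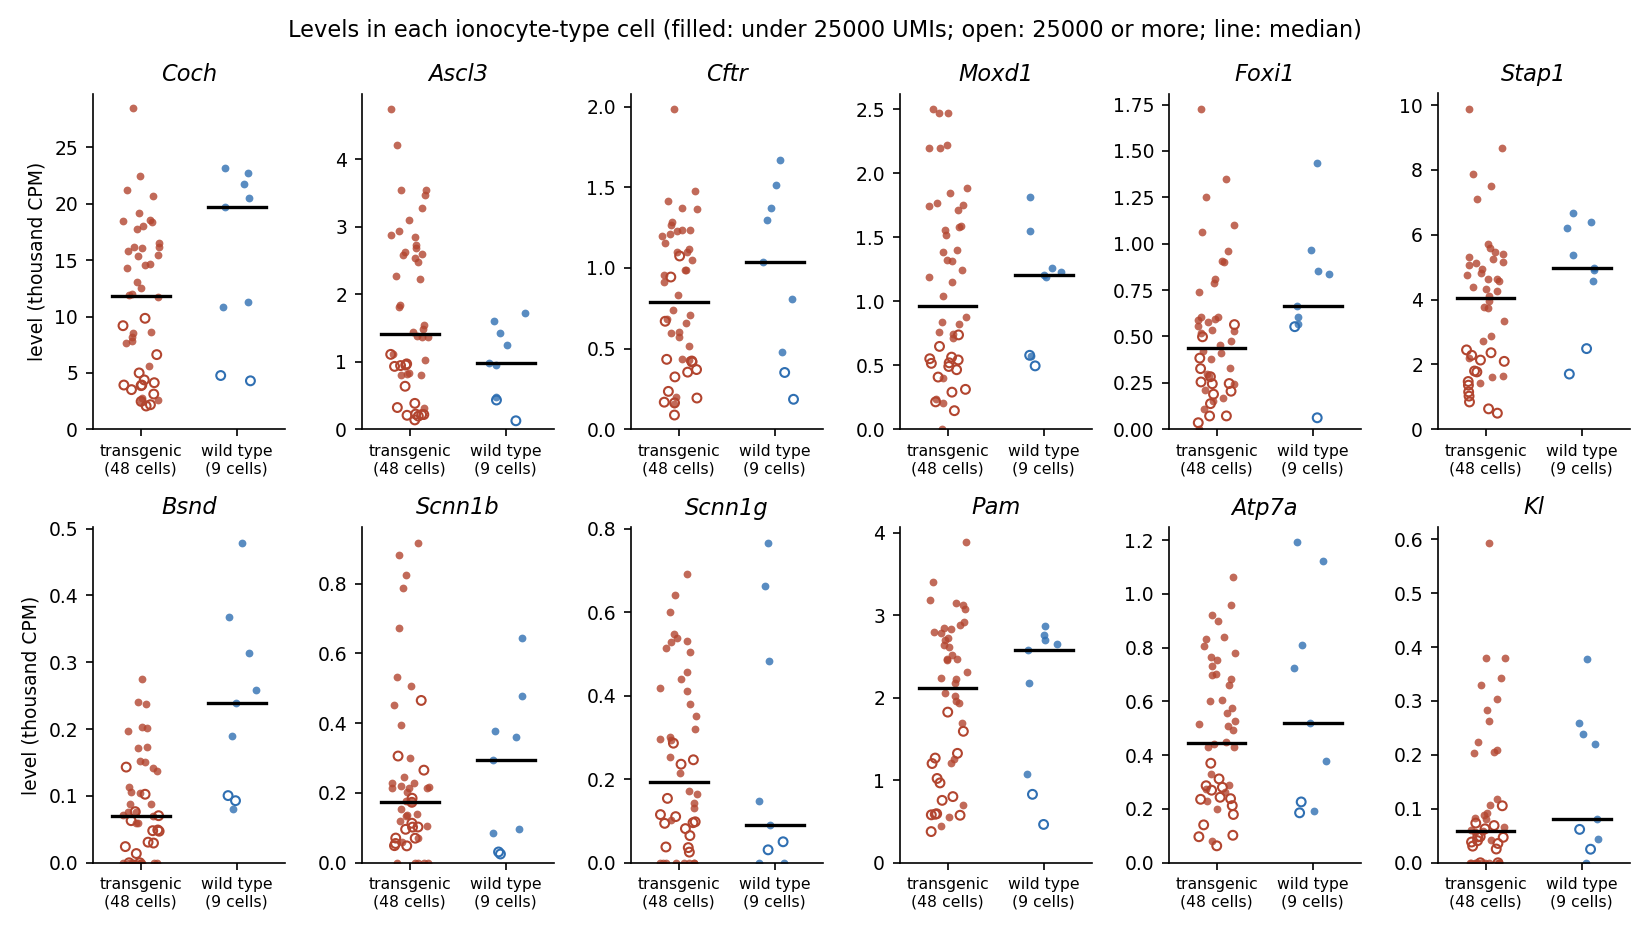
Level of 12 genes in each of the 48 transgenic and 9 wild-type ionocyte-type cells, in units of 1000 CPM of the cell, each panel with its own linear axis. Open circles are cells with 25000 UMIs or more, filled ones the rest, and the lines are medians; the deep cells sit low for Coch, Stap1 and Pam, and wild-type cells reach the highest values of Bsnd.

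Across all genes with at least 50 UMIs in the ionocyte-type cells (4763 genes), 214 or 4.49% were at least 4-fold higher than in all other cells in both libraries. That filter leaves out genes the cells lack, so counts within a list describe the genes that were measured and support nothing more. The median log2 ratio of all measured genes was 0.25 for transgenic and 0.45 for wild-type cells, which is the level to read each ratio against. Among cells under 25000 UMIs, 2010 genes were measured and 200 of them, 9.95%, passed 4-fold. Cells with 10 to 20% mitochondrial UMIs, which the rule had left out, gave a second look at these genes: 168 transgenic and 64 wild-type cells under 25000 UMIs. Of those 200 genes, 144 were again at least 4-fold, and 187 at least 2-fold, above other cells of the same mitochondrial range in both libraries. Of all 2010 genes, 8.06% passed 4-fold there. These cells met the same Coch, Ascl3, Cftr and Omp conditions in the same libraries, and the 200 genes had been picked as high. The counts are therefore a description and no independent check.

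The 20 genes with the largest ratios over other cells, apart from those used by the rule, were led by 4930469K13Rik, a gene with no known role. It had 1066 and 1401 CPM in the transgenic and wild-type ionocyte-type cells, against 9.62 and 9.24 CPM in all other cells. The most abundant of the 20 was Stap1, a signalling adaptor known from lymphocytes, with 2719 and 3980 CPM in the ionocyte-type cells and 37.3 and 35.8 CPM in the others. Galnt13, which starts O-linked sugar chains on proteins, had 669 and 961 CPM against 6.24 and 3.55 CPM. Oprd1, the delta opioid receptor, had 44.6 and 49.6 CPM against 0.451 and 0.203 CPM. No UMI of Oprd1 or Galnt13 was found in tuft-type or sustentacular cells under 25000 UMIs of either library. Kl, which encodes Klotho, a co-receptor for endocrine fibroblast growth factors, had 81.5 and 105 CPM against 0.740 and 0.305 CPM. Others among the 20 were the proton pump gene Atp6v0d2, the chloride channel subunit gene Bsnd, the sodium channel genes Scnn1b and Scnn1g, the forkhead gene Foxi2, the myosin gene Myh7, the G-protein gene Gng4, the adhesion receptor Adgrf1, Nrip3, Fam71b, Smbd1, Gm34059, 2610016A17Rik and Moxd1.

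Transcription factors known from ionocytes of other organs stood far above the other cells. Of 20 listed transcription factors, 15 were measured and 6 were at least 4-fold above other cells in both libraries, beside 4.49% of all genes. They were Foxi1, Foxi2, Ascl3, Tfcp2l1, Dmrt2 and Esrrg, Ascl3 having chosen the cells. Foxi1, the master factor of ionocytes in airway and kidney, had 404 CPM (368 to 442) in transgenic and 614 CPM (499 to 747) in wild-type ionocyte-type cells. All other cells held 7.82 and 9.19 CPM. Under 25000 UMIs, 33 of 34 transgenic cells held a UMI of Foxi1, against 1 of 67 transgenic tuft-type cells. With every cell thinned to 3000 UMIs these were 24 of 34 and 0 of 67, so the shares also differed at equal depth; the medians before thinning were 13603 and 6316 UMIs. Foxi2, a relative of Foxi1, had 122 and 217 CPM in the transgenic and wild-type cells. Tfcp2l1, a grainyhead-like factor of kidney collecting duct, had 196 and 403 CPM against 9.11 and 23.0 CPM in the other cells. Esrrg, an orphan nuclear receptor linked to oxidative metabolism, had 79.8 and 186 CPM against 2.19 and 1.78 CPM. Dmrt2 had 151 and 93.0 CPM against 2.57 and 2.39 CPM. No UMI of Foxi3 was found in ionocyte-type cells of either library, which with 3 UMIs as the limit of a count of 0 leaves low levels undetected.

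The promoters of the 2 genes that lead the rule are shown because Ascl3 was a regulator and Coch the most abundant marker of the cells. They are RefSeq sequences of the build GRCm38.p6, matched by symbol, and cover 250 bases before and 50 after each start. The Ascl3 promoter lies at chr7:109731683-109731982 on the minus strand and the Coch promoter at chr12:51593091-51593390 on the plus strand. Capitals mark matches to the motifs searched.
Ascl3: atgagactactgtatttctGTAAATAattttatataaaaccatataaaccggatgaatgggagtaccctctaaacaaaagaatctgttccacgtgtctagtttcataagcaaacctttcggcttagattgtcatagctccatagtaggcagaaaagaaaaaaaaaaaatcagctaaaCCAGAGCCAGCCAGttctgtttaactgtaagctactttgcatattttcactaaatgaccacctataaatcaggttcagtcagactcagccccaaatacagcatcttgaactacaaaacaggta
Coch: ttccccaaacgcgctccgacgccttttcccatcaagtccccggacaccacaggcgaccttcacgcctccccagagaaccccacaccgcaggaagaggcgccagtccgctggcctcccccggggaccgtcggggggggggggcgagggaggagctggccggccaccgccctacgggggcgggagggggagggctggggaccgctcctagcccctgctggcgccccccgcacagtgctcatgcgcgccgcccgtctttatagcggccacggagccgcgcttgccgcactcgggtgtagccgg
The 3 motifs, written 5′ to 3′, were searched on both strands in the 18 of the 23 marker and leading genes that had an entry: the forkhead-type motifs TGTTTAC and TATTTAC, and a pair of CCAG with any 6 bases between them, as bound by Tfcp2l1-type factors. TGTTTAC is in 3.65% of all 32851 promoters of the table and was in 0 of the 18 genes. TATTTAC is in 3.04% of all and was in Ascl3 alone, 231 bases before the start and on the opposite strand. The CCAG pair is in 3.44% of all and was in 3 genes, Ascl3, Adgrf1 and Oprd1. In the Ascl3 promoter it began 73 bases before the start. A match is a run of letters in this window and no evidence of binding.

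Chloride channel and loading genes were high. Of 30 listed chloride and bicarbonate genes, 8 were measured and 4 were at least 4-fold above other cells in both libraries, beside 4.49% of all genes. Among the 4 were Cftr, which had chosen the cells, Bsnd and Slc12a2. Bsnd encodes barttin, an accessory subunit of chloride channels. It had 69.5 CPM (55.2 to 86.4) and 198 CPM (136 to 280) in transgenic and wild-type ionocyte-type cells, against 1.03 and 0.457 CPM in the others. Slc12a2, the cotransporter that loads cells with sodium, potassium and chloride, had 1036 CPM (979 to 1097) and 1172 CPM (1011 to 1351), against 201 and 287 CPM in the other cells. Under 25000 UMIs it stood at 1653 and 1636 CPM, against 160 and 84.3 CPM in tuft-type and 108 and 116 CPM in sustentacular cells of the transgenic and wild-type libraries. Of the listed genes, Slc26a4, Slc26a3, Slc4a1 and Car4 had no UMI in the ionocyte-type cells of either library. Car2, a carbonic anhydrase typical of acid-secreting cells, had 2 UMIs in transgenic and 1 UMI in wild-type cells.

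Sodium channel genes were high together. Of 34 listed cation and water transport genes, 13 were measured and 3 passed 4-fold in both libraries, beside 4.49% of all genes. These 3 were the subunits of the epithelial sodium channel ENaC. Scnn1a had 191 CPM (167 to 218) and 440 CPM (344 to 555) in transgenic and wild-type ionocyte-type cells, against 14.3 CPM in the other cells of either library. Scnn1b had 182 and 198 CPM against 2.77 and 1.62 CPM. Scnn1g had 174 CPM in both libraries against 2.12 and 1.12 CPM. Atp1b1, a sodium pump subunit, had 2016 and 2129 CPM in cells under 25000 UMIs, against 209 and 148 CPM in tuft-type and 671 and 622 CPM in sustentacular cells. Kcnma1, the large-conductance potassium channel, had 401 and 280 CPM against 75.9 and 42.1 CPM in tuft-type and 35.1 and 14.1 CPM in sustentacular cells. The water channels Aqp3 and Aqp4 followed the deep cells. They had 433 and 307 CPM over all transgenic ionocyte-type cells but 6.37 CPM each under 25000 UMIs, against 894 and 771 CPM in sustentacular cells.

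Proton pump genes were high in several common subunits and in Atp6v0d2, and low in Atp6v1b1 and Atp6v0a4. Of 24 V-ATPase genes, 20 were measured, 16 stood above other cells in both libraries, 10 by at least 2-fold and 1 by at least 4-fold. Of all 4763 genes, 58.7% stood above other cells in both libraries and 13.9% did so by at least 2-fold. Their median log2 ratio was 1.23 for transgenic and 1.04 for wild-type cells, beside 0.25 and 0.45 over all measured genes. The 1 gene past 4-fold was Atp6v0d2, a subunit known from osteoclasts and kidney, with 136 and 217 CPM in the transgenic and wild-type ionocyte-type cells against 1.22 and 1.32 CPM in the others. Common subunits were the most abundant. Under 25000 UMIs, Atp6v0c, the ring subunit of the membrane sector, had 2132 and 1748 CPM against 426 and 358 CPM in tuft-type and 389 and 260 CPM in sustentacular cells. Atp6ap2, an accessory subunit, had 970 and 1255 CPM against 191 and 190 CPM and 122 and 130 CPM. Atp6v1a, the catalytic subunit, had 609 and 527 CPM against 86.1 and 101 CPM and 278 and 255 CPM. Atp6v1b1 and Atp6v0a4, the subunits that mark ionocytes of kidney and inner ear, followed the sustentacular cells instead. Atp6v1b1 had 14.9 and 0 CPM in the ionocyte-type cells under 25000 UMIs, against 218 and 291 CPM in sustentacular cells. Atp6v0a4 had 2.12 and 11.2 CPM against 300 and 286 CPM.

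Nuclear genes of the respiratory chain, which work beside the mitochondrially encoded subunits, were higher by a small amount. All 74 listed genes were measured and none passed 4-fold. In cells under 25000 UMIs, 71 of 74 stood above other cells in both libraries, with a median log2 ratio of 0.64 for transgenic and 0.93 for wild-type cells. Of the 2010 measured genes there, 61.9% stood above, and their medians were 0.36 and 0.56. Over all ionocyte-type cells, deep ones included, 60 of 74 stood above, with medians of 0.30 and 0.63. Summed, these genes took 42799 and 42688 CPM in the transgenic and wild-type cells under 25000 UMIs, against 22865 and 20222 CPM in tuft-type and 25793 and 23999 CPM in sustentacular cells. Examples are Cox8a of complex IV, with 2502 and 2365 CPM against 986 and 923 CPM in tuft-type cells, and Uqcrb of complex III, with 1021 and 997 CPM against 320 and 274 CPM. The rule limited mitochondrial UMIs and did not use these nuclear genes.

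**Figure D3:**
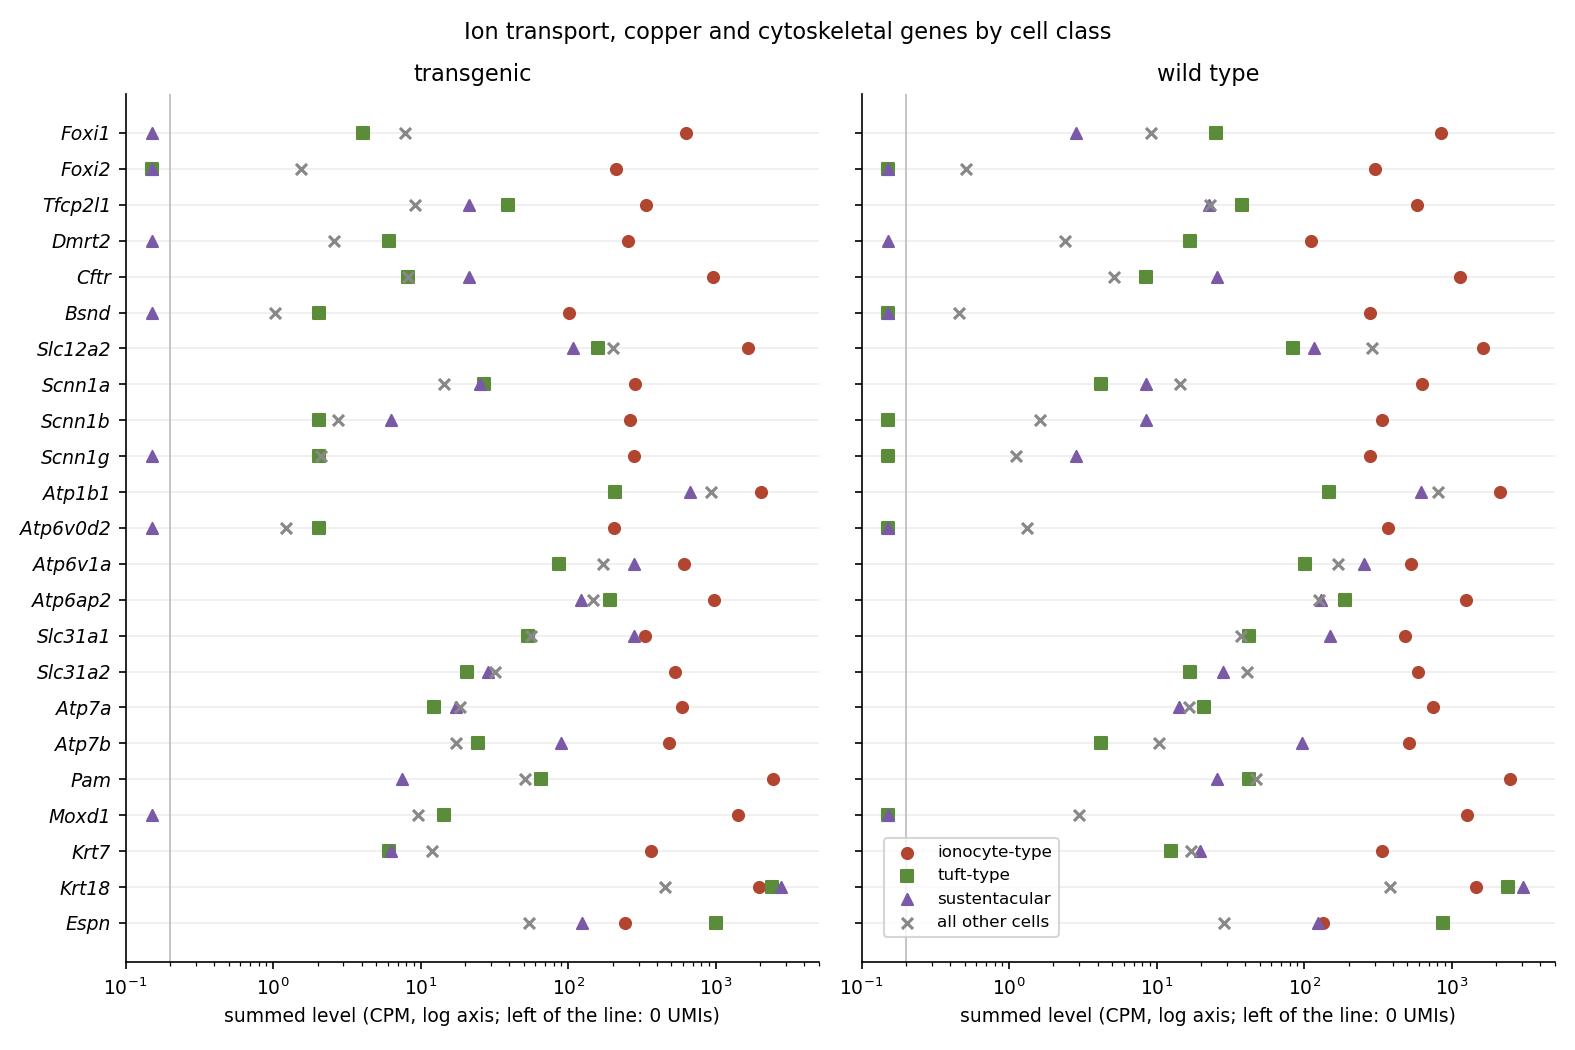
Summed level of 23 genes (CPM, log axis) in ionocyte-type, tuft-type and sustentacular cells under 25000 UMIs and in all other passing barcodes, transgenic library left and wild-type right; symbols left of the grey line mark 0 UMIs. Foxi1, Foxi2, Bsnd, Scnn1b, Scnn1g and Moxd1 stand above 100 CPM in ionocyte-type cells of both libraries and at 25.3 CPM or less in every other class shown, whereas Krt18 is shared with tuft-type and sustentacular cells.

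Copper handling genes formed a further group, from lists drawn up after the values had been seen. The 4 genes of copper uptake and export were all at least 4-fold above other cells in both libraries, beside 4.49% of all genes. Slc31a1, the main copper importer, had 341 and 397 CPM in the transgenic and wild-type ionocyte-type cells against 55.9 and 37.1 CPM in the others. Its relative Slc31a2 had 314 and 446 CPM against 31.9 and 41.2 CPM. Atp7a and Atp7b, the pumps that load copper into secreted enzymes and remove it from the cell, had 357 and 508 CPM against 18.6 and 16.6 CPM, and 338 and 372 CPM against 17.5 and 10.3 CPM. Of 15 copper enzymes, 3 were measured and 2 passed 4-fold: Moxd1 and Pam. Pam, which amidates secreted peptides, had 1505 CPM (1435 to 1577) and 1674 CPM (1480 to 1886), against 51.0 and 47.0 CPM. Dbh, a copper enzyme related to Moxd1, had no UMI. Of 9 genes for copper chaperones and metallothioneins, 6 were measured and none passed 2-fold over other cells in both libraries. Of the 4 genes of copper uptake and export, 3 were at least 4-fold above tuft-type cells and 2 above sustentacular cells in both libraries. Of all genes, 2.56% and 3.44% were so. Under 25000 UMIs, 47.2% and 52.4% of sustentacular cells held a UMI of Atp7b, against 94.1% and 100% of ionocyte-type cells. Slc31a1 had 333 and 482 CPM under 25000 UMIs against 281 and 150 CPM in sustentacular cells. The metalloreductase gene Steap2, which can reduce iron and copper, had 352 and 359 CPM against 10.3 and 8.43 CPM in tuft-type and 172 and 84.9 CPM in sustentacular cells.

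Among signalling genes, some of calcium release, the receptor gene P2ry14 and the ectoenzyme gene Nt5e were high, without the tuft-cell cascade. The listed nucleotide and adenosine genes P2ry1, P2ry2, Entpd2, Adora1 and Adora2b had no UMI in ionocyte-type cells under 25000 UMIs of either library. Of 30 listed genes, 10 were measured and 4 were at least 4-fold above other cells in both libraries, beside 4.49% of all genes. Itpr3, the calcium release channel known from microvillar cells, had 112 and 149 CPM in the transgenic and wild-type cells against 6.95 and 14.8 CPM. Plcg2, a phospholipase that feeds it, had 126 and 167 CPM over all ionocyte-type cells, against 9.69 and 25.8 CPM. Tuft-type cells under 25000 UMIs, a set without deep cells, had 156 and 181 CPM of Plcg2. P2ry14, a receptor for UDP-glucose, had 308 and 415 CPM under 25000 UMIs, against 10.3 and 8.43 CPM in tuft-type cells. Nt5e, the ectoenzyme that turns AMP into adenosine, had 103 and 143 CPM against 3.93 and 4.98 CPM. Npy, a peptide described in microvillar cells, had 3 UMIs in the transgenic (2.57 CPM) and 0 in the wild-type ionocyte-type cells, against 6.53 and 7.62 CPM in the other cells. At the depth of the wild-type cells 3 UMIs are 18.6 CPM, so a difference was not detectable there. Among growth signals, also listed after the values were seen, 4 of 6 measured genes passed 4-fold over other cells in both libraries, beside 4.49% of all genes. Fgf10, a fibroblast growth factor, had 91.8 and 105 CPM against 2.86 and 1.98 CPM. Sema3a, a repellent of axons, had 112 and 242 CPM against 24.1 and 15.4 CPM. Ptch1, the Hedgehog receptor, had 161 and 205 CPM against 31.6 and 27.9 CPM. Fewer growth signal genes passed 4-fold in both libraries over the most similar cells: 2 over tuft-type and 2 over sustentacular cells. Of all genes, 2.56% and 3.44% did so. Of 23 Notch pathway genes 5 were measured, and only the ligand gene Dll1 passed 4-fold over other cells, with 28.3 and 118 CPM against 6.95 and 4.98 CPM. Of its wild-type UMIs, 10 of 19 were in 1 deep cell, and under 25000 UMIs it had too few UMIs to be measured. No Notch pathway gene passed 4-fold over tuft-type cells in both libraries.

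The apical cytoskeleton was partly shared with tuft-type cells. Of 16 listed genes for microvilli and keratins, 8 were measured and 4 passed 4-fold over other cells in both libraries, beside 4.49% of all genes. Krt7 had 220 and 279 CPM in the transgenic and wild-type ionocyte-type cells against 11.9 and 17.2 CPM, and stood under 20 CPM in tuft-type and sustentacular cells under 25000 UMIs of both libraries. Eps8, a capping protein of actin bundles, had 92.7 and 124 CPM against 14.2 and 22.7 CPM. Espn, the actin bundler of microvilli, had 220 and 186 CPM over all ionocyte-type cells against 54.7 and 28.7 CPM. Tuft-type cells under 25000 UMIs had 998 and 877 CPM of Espn. Krt18 had 1977 and 1468 CPM in cells under 25000 UMIs, lower than the 2399 and 2415 CPM of tuft-type and the 2786 and 3039 CPM of sustentacular cells.

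Over the 4763 genes, 122 (2.56%) were at least 4-fold above tuft-type cells and 164 (3.44%) above sustentacular cells in both libraries. Those gates required Coch under 0.2%, so Coch is no part of this comparison. Immediate-early genes, which respond to stimulation and to dissociation of tissue, were lower than in tuft-type cells. Summed, 24 of them took 7827 and 4326 CPM in the transgenic and wild-type ionocyte-type cells under 25000 UMIs, against 35639 and 29081 CPM in tuft-type and 9113 and 3440 CPM in sustentacular cells. Of 16 measured, none was 2-fold above all other cells in both libraries.

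**Figure D4:**
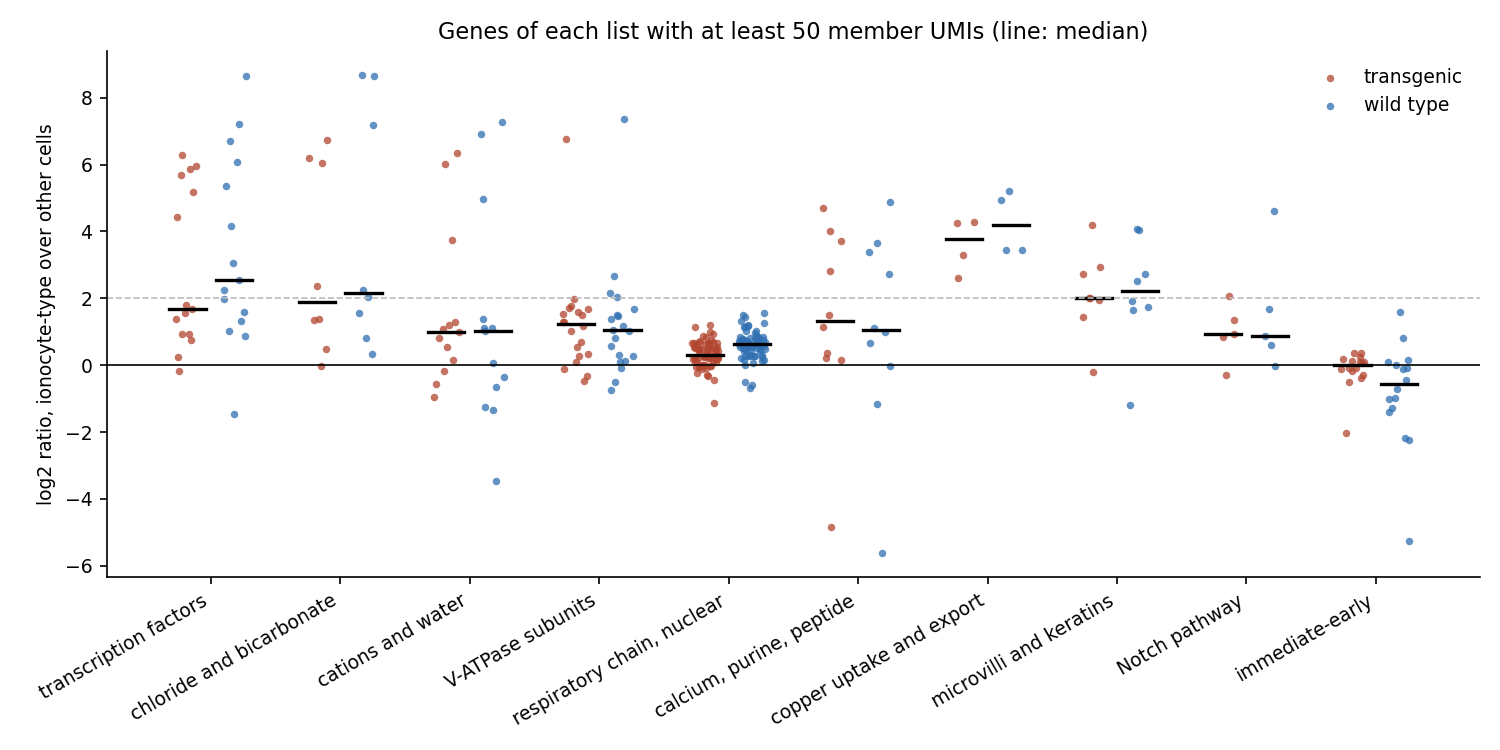
Log2 ratio of ionocyte-type over all other cells for each gene with at least 50 UMIs in the ionocyte-type cells, by list, transgenic left of wild type in each pair, with the median as a line and the 4-fold level dashed. The 4 copper genes lie above 2 in both libraries, the respiratory chain genes form a narrow band with medians of 0.30 and 0.63, and the immediate-early genes have medians of −0.01 and −0.57.

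Between the libraries, no difference has a replicate behind it. Of the 4763 genes, 310 (6.51%) were at least 2-fold higher and 192 (4.03%) at least 2-fold lower in transgenic than in wild-type ionocyte-type cells, around a median log2 ratio of −0.10. Many of these genes were held by few cells. Of the 310 genes, 102 were also 2-fold higher under 25000 UMIs and 43 were so with the mitochondrial limit at 20% as well (202 and 71 cells). Of the 192 genes, 111 and 12 kept a 2-fold lower level in these sets. Of the 8 genes with the largest ratios up, most had their UMIs in single or deep transgenic cells and 0 to 3 UMIs in the wild-type cells. For Col1a1, 511 of 515 UMIs were in 1 cell, for Col1a2 494 of 495 and for Sparc 448 of 472, all in the same cell of 28390 UMIs. For Apoe it was 1218 of 1596 in another cell. Krt14 had all its UMIs in deep cells, Mt3 97.9% and Ptn 96.8%. Without the deep cells few or no UMIs of Col1a1, Col1a2, Sparc and Krt14 were left in either library, and their ratios then depend on the 1 UMI added to each sum. Meg3, a long noncoding RNA, was spread wider: 16 of 48 transgenic cells held 173 UMIs and the 9 wild-type cells none. With the mitochondrial limit at 20% and under 25000 UMIs it had 358 and 108 CPM in the transgenic and wild-type cells.

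Differences with the same sign in all 3 sets of cells were fewer. Ascl3 was higher in the transgenic cells, with log2 ratios of 0.62 in all, 0.95 under 25000 UMIs and 0.51 (0.42 to 0.61) with the 20% limit. Coch was lower, with −0.66, −0.48 and −0.34 (−0.36 to −0.31). Both genes belong to the rule, so these are descriptions. Bsnd was lower, with −1.54 (−2.12 to −0.87), −1.49 and −1.05 (−1.31 to −0.78). Scnn1a was lower, with −1.22 (−1.59 to −0.80), −1.16 and −0.75 (−0.92 to −0.59), while Scnn1g had −0.04, −0.05 and 0.23. Rnase1, a secreted ribonuclease, was lower, with 124 and 422 CPM in the transgenic and wild-type cells and log2 ratios of −1.77, −1.60 and −1.20. In all other cells its log2 ratio was −0.00. Grk3, a receptor kinase, and Rpl29, a ribosomal protein, were lower here (log2 ratios −1.93 and −1.91) and also in the other cells (−1.12 and −1.48). Dll1, Scn3a and Napepld had −2.09, −1.79 and −1.78, and less with the 20% limit (−0.67, −0.81 and −0.69). For Dll1, 10 of 19 wild-type UMIs were in 1 deep cell. Sox11 was lower over all cells (−1.80) and 1.51 under 25000 UMIs, where the wild-type cells held none: 100 of its 101 wild-type UMIs were in 1 deep cell. Obp2a, an odorant-binding protein of glands, had −4.93, with 44 of 75 wild-type UMIs in 1 cell. It also had −2.48 in the other cells and −2.17 in free RNA, and what part of its level came from free RNA was not tested.

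Of 16 measured immediate-early genes, 5 were at least 2-fold higher in the transgenic cells and 0 were lower, beside 6.51% of all genes higher: Junb, Atf3, Ier3, Nr4a1 and Klf2. Junb had 922 and 372 CPM in the transgenic and wild-type cells, with log2 ratios of 1.29 (0.93 to 1.71), 0.94 and 1.30 in the 3 sets. Atf3 had 183 and 31.0 CPM, with 2.30, 2.83 and 2.42. In all other cells Junb had a log2 ratio of −0.10 and Atf3 of 0.43. Sustentacular cells under 25000 UMIs showed the same direction, with 1196 and 255 CPM of Junb in the transgenic and wild-type library, and 9113 and 3440 CPM for the whole list.

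**Figure D5:**
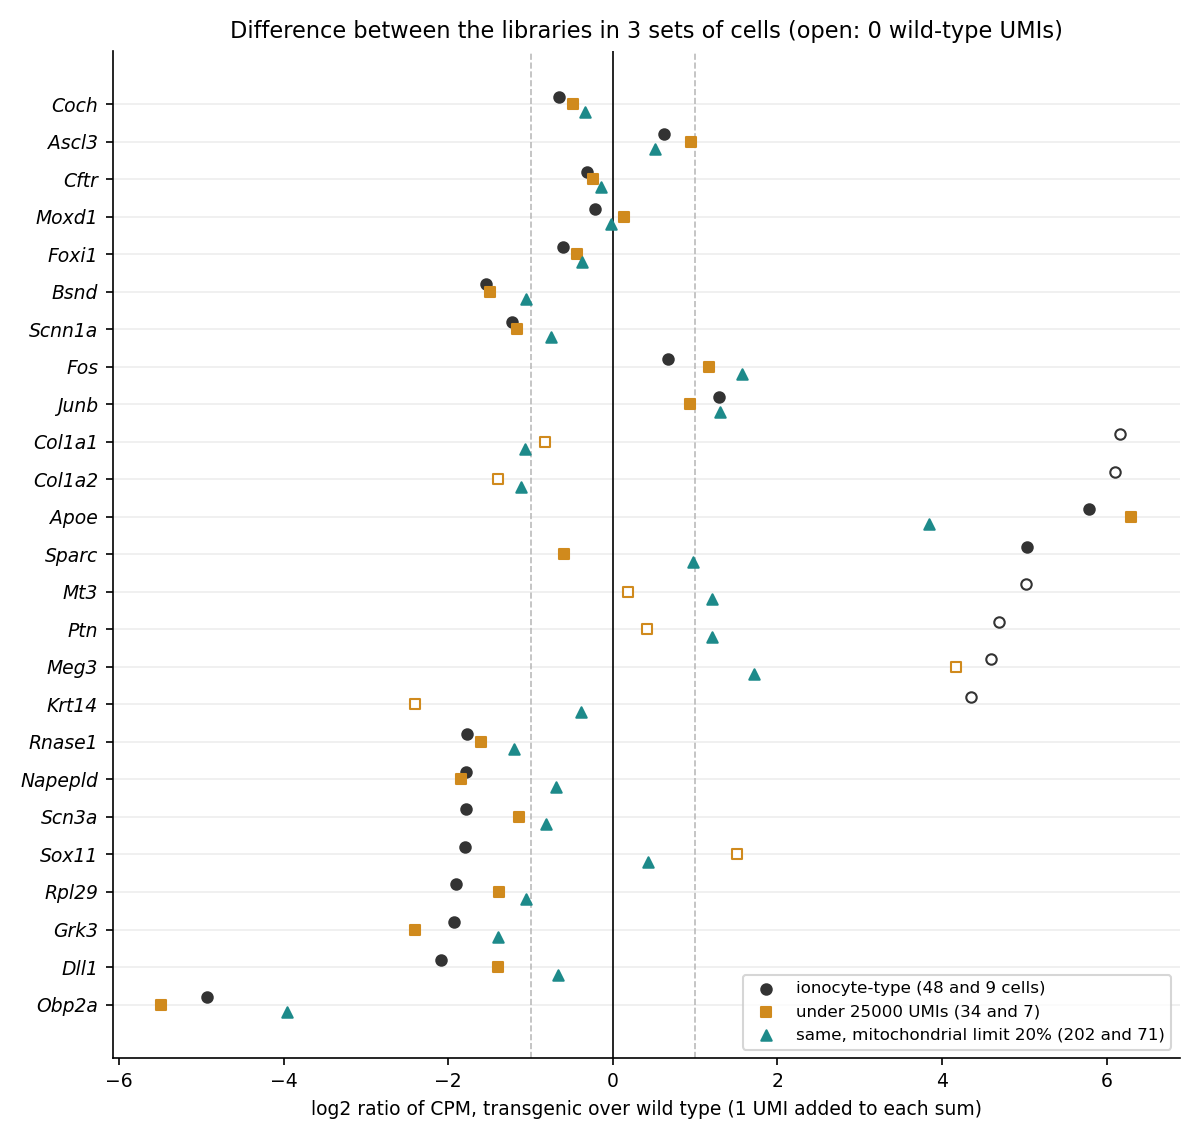
Log2 ratio of summed CPM, transgenic over wild type, for 9 marker, channel and immediate-early genes and the 8 genes per direction with the largest ratio, in 3 sets of cells; 1 UMI was added to each sum, and open symbols mark 0 wild-type UMIs, where the ratio depends on that added UMI. Bsnd, Scnn1a and Rnase1 are below 0 in each set, whereas Col1a1, Col1a2 and Krt14, with few or no UMIs left, change sign without the deep cells.

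UMIs of the transgene were rare in these cells. The added feature 1A1_tg had 1 UMI in 1 of 48 transgenic ionocyte-type cells (2.08%, 0.0527 to 11.1%), against 490 of the 1896 other transgenic cells (25.8%). In the wild-type library 0 of 9 ionocyte-type cells held one, which by the limit of 3 counts allows a share of up to 33.3%. The other added feature, 10G4, had a UMI in 3 of 48 transgenic and 1 of 9 wild-type cells, against 8.44% and 11.1% of other cells. UMIs of endogenous odorant receptor genes were found in 72.9% of transgenic and 66.7% of wild-type ionocyte-type cells, and in 74.4% and 72.3% of other cells. Under 25000 UMIs no ionocyte-type cell held more than 3 of them, a deep transgenic one held 90, and other cells held up to 834 and 862. The source of these UMIs was not tested.

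Among the ionocyte-type cells themselves, each thinned to 3000 UMIs, the genes with the largest variance over their mean were Apoe, Col1a1, Cyp2a5, Cyp2g1, Lyz2 and Rgs5, with ratios of 129, 59.0, 47.5, 37.4, 35.6 and 29.3. All 6 are known from other cell types, and most of their UMIs lay in few cells: 248 of 385 transgenic UMIs of Lyz2, and 1046 of 1202 of the pericyte gene Rgs5, were in 1 cell each. Among the markers, Coch had a ratio of 12.9 and Ascl3 of 3.55, and Stap1 had 4.24.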

How the data were processed

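Per the labels' protocols, the tissue was minced, digested with enzymes, strained and used for 10x 3′ (v3.1) libraries. The authors deposited unfiltered matrices of UMI counts per gene and barcode. The submitters' processing notes name Cell Ranger 6.1.1 and GRCm39 (mm39), while the file headers name Cell Ranger 4. Near-identical genes are uncertain where that counting could split them.

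UMIs were summed over cells of a library and given as CPM. Log2 ratios had 1 UMI added to each sum. Shares carry Clopper-Pearson and ratios conditional binomial 95% intervals. Scripts used Python 3.11.15, numpy 2.4.6, scipy 1.17.1 and pandas 2.3.3. Ratios were tested on simulated Poisson counts without variation between cells, so that check does not cover genes held by few cells. Tuft-type cells had at least 3 UMIs of Trpm5 and Pou2f3, sustentacular cells at least 0.1% of Cyp2g1 and Ermn, both with Coch under 0.2%, Omp under 0.15% and the same limits on UMIs, genes and mitochondrial share, sustentacular cells also under 3 UMIs of Trpm5 and Pou2f3. Free RNA was the sum of barcodes under 100 UMIs. Scrublet (scanpy 1.11.5) marked 4 of 1944 and 3 of 1282 cells (0.206% and 0.234%), where rates of 1.56% and 1.03% had been expected. The marks were therefore not relied on, and no cell was removed as a doublet. Of the ionocyte-type cells 0 were marked, but 9 transgenic and 1 wild-type ones were among the 5% of highest scores of their library.

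The cells and the 23 gene lists were chosen with earlier results of these data known; the copper and growth lists and the limits of 25000 UMIs and 20% were added after the values were seen. Genes were named by rule: the 4 markers, the 20 with the largest ratio over other cells, up to 6 by level and 4 by ratio per list, 8 per direction between libraries, the added features and up to 6 by spread. Others, such as Bsnd, Scnn1a, Foxi3, Car2, Npy and Atp6v1b1 in the comparisons, were picked afterwards. Alternatives changed each limit, the added UMIs, the filter on low counts and the totals. Some genes are not reported here.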

Additional observations from a re-analysis of the deposited data

How the results depend on the processing

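The shares moved with the mitochondrial limit. In the transgenic library the share was 0.246% at a 5% limit, 8.34% at 20%, 8.25% with no limit and 8.39% at 20% under 25000 UMIs; in the wild-type library it was 4.30%, 5.34% and 4.59% under the last 3, and a 5% limit left no cell. Under the other alternatives both shares stayed within their intervals. Counts of genes 2-fold higher in transgenic cells, 310 as given, were 599 and 110 with Coch at 0.1% and 0.4%, 68 under 25000 UMIs, 110 under 25000 UMIs at 20%, 89 with 5 UMIs added, and 615, 147 and 805 with a filter at 20, 100 and no UMIs. Genes 2-fold lower, 192 as given, were 479, 72 and 61 under the first 3 of these, 480 with 5 UMIs added, and 710, 47 and 4800 with those filters. The 214 genes 4-fold over other cells became 347 at 20%, 386 at 20% under 25000 UMIs and 1182 with no filter. The 122 and 164 genes over tuft-type and sustentacular cells were 128 and 160 with stricter gates for those cells, and 180 and 181 under 25000 UMIs. The last are 8.96% and 9.00% of 2010 measured genes, against 2.56% and 3.44% of 4763. No other alternative was tried for these counts. Each setting changes how many cells or genes enter; beyond that, the cause was not tested.

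Of 21 gene ratios between the libraries, 7 changed sign in some setting. For Cftr and Moxd1, under 2-fold as given, the log2 ratio was 0.23 and 0.31 with Coch at 0.4%, and for Moxd1 0.14 under 25000 UMIs and 0.01 as a mean over cells; the other 5 were past 2-fold. Without cells of 25000 UMIs or more, the ratio (log2, transgenic to wild type) was −0.82 for Col1a1, −1.40 for Col1a2, −0.59 for Sparc, −2.40 for Krt14 and 1.51 for Sox11. With few or no UMIs left there, these depend on the 1 UMI added. At 20% as well, it was −1.07, −1.12, −0.39 (Krt14) and 0.43 (Sox11). Krt14 also had −1.01 with Coch at 0.4% and −1.92 without the 5% of highest Scrublet scores. The 31 genes followed against other cells kept a log2 ratio of at least 2.02 under all 18 alternatives. Most of them were picked for a high ratio or used by the rule, so this describes them and tests nothing. Several alternatives, such as other limits on Ascl3 and Cftr, left the same cells and could not move a ratio. No paired analysis was possible because each group has 1 library. Depth limits the 9 wild-type cells most: a gene at 0 there may have up to 3 UMIs behind it.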

Other observations

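Transgenic cells low in Coch had a different mix of genes, a pattern seen in the data and described without a test. Under 25000 UMIs and with the mitochondrial limit at 20%, 8 transgenic cells had Coch under 0.6% of UMIs and 178 had at least 1%. The cells low in Coch held Ascl3 at 2388 CPM (2118 to 2683), against 1829 CPM (1774 to 1885) in the cells high in Coch, and Foxi1 at 732 CPM (586 to 902) against 551 CPM (522 to 583). Cftr was 521 CPM (400 to 668) against 940 CPM (901 to 981). The sodium channel genes were lower still, with 101 CPM (52.1 to 176) of Scnn1b against 362 CPM (338 to 388), and the same 101 and 362 CPM of Scnn1g. Kl had 25.2 CPM (5.20 to 73.7) against 157 CPM (142 to 174), and Wfdc2, a secreted protease inhibitor, 1194 CPM (1006 to 1407) against 4272 CPM (4188 to 4357). Higher in the cells low in Coch were the claudin gene Cldn10 (656 CPM, 518 to 819, against 35.6 CPM, 28.3 to 44.2), the receptor Kit (395 against 116 CPM), Igfbp5 (311 against 113 CPM) and Id3 (530 against 143 CPM). Cldn10 was held by 3 of the 8 cells, Igfbp5 by 4, Id3 by 5 and Kit by 7, so the first 3 rest on few cells. Ascl3 was held by 7 of the 8, Foxi1 by 8, Scnn1b and Scnn1g by 4 each and Kl by 2. The summed Ascl3 level hides a spread between cells: it took 0.0797% of the UMIs of 1 of them and 0.421% of another. Among the 178 cells high in Coch, 32 held Cldn10, 114 Igfbp5, 70 Id3 and 128 Kit. These genes were chosen after their values had been seen. The cells of middle Coch level, 16 in number, lay between for Cftr (723 CPM) and Scnn1b (284 CPM), but not for Foxi1 (543 CPM) and Igfbp5 (59.9 CPM). In the wild-type library only 1 cell was under 0.6%, against 68 with at least 1%. It held 2 UMIs of Ascl3, or 161 CPM (19.5 to 580) against 1344 CPM (1263 to 1428). Foxi1 had 161 CPM (19.5 to 580) against 754 CPM (694 to 818). Both lay in the opposite direction to the transgenic cells. Among those in the same direction were Cftr (562 against 1017 CPM), Scnn1b (161 against 393 CPM) and Kit (241 against 113 CPM). Cldn10, Igfbp5 and Id3 had no UMI in it. With 1 cell the pattern was not tested there.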
